A study of Rattus norvegicus with 18 samples.

Results

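This account follows 8 genes of the secretory cells that line rat airways through a study of cigarette smoke inhalation. The 8 genes were chosen by name, with earlier results of these data known. Every probe set that the array annotation gives to exactly 1 of those symbols was taken. Each gene had 1 such probe set, so there were 8 probe sets, out of 13810 genes that had a probe set of 1 symbol. Cyp4b1, Cyp2f4, Cyp2a3 and Cyp2s1 encode cytochrome P450 enzymes, and Scgb1a1, Scgb3a1, Bpifa1 and Agr2 encode secreted or secretory-pathway proteins. All 8 passed the filter on dim probe sets and were among the 19638 probe sets tested.

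The tissue was whole lung of male Sprague-Dawley rats that had breathed mainstream smoke of the 2R4F reference cigarette by nose-only exposure, or had undergone a sham procedure, in 2 h sessions on 5 days of each week over 13 weeks. Smoke was delivered at 600 or 300 µg of total particulate matter per litre, written below as 600 µg/l and 300 µg/l, and sham was the reference for both. Lungs were collected after 2, 6 or 20 h of recovery, and total RNA of each of the 9 conditions was hybridised to 1 Affymetrix array of type A and 1 of type B, 18 arrays in all. Animal ages, and whether an array held RNA of 1 rat or of a pool, are not given in the sources used here. With no replicate of any condition, exposures were compared over the 3 recovery times (n = 3 arrays per exposure) and recovery times over the 3 exposures, so p-values here rest on the spread among the arrays alone. The probe sets of Cyp4b1 (1370399_at), Cyp2f4 (1368608_at), Cyp2a3 (1369136_at), Cyp2s1 (1390282_at) and Scgb1a1 (1367566_at) are on type A. Those of Scgb3a1 (1393771_at), Bpifa1 (1384325_at) and Agr2 (1393121_at) are on type B. In RefSeq's GRCr8 annotation Cyp2f4, Cyp2a3, Cyp2s1 and Scgb1a1 are on chromosome 1, Cyp4b1 on chromosome 5, Scgb3a1 on chromosome 10, Bpifa1 on chromosome 3 and Agr2 on chromosome 6.

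Doubts about a few arrays bear on the values below. The B array that carries the label of sham at 2 h departed from the mean B array in the same probe sets as the B array of 300 µg/l at 2 h (r = 0.56 across probe sets), against at most 0.12 in the other 35 B pairs and -0.16 for the type A arrays of the same labels. The correlation does not tell which array of the pair is at fault, and below only the sham array is called doubtful. The doubt touches Scgb3a1, Bpifa1 and Agr2, whose differences from sham are therefore also given without that sham array. Without the 300 µg/l arrays at 2 h instead, their log2 differences at 300 µg/l were 0.41, -0.38 and 0.17. For the smoke arrays at 20 h, 1 label field reads sham while the title and the source field name the smoke level, so results were also computed without the 20 h conditions. The 3'/5' signal ratio of the GAPDH control probe sets, a measure of RNA integrity, was 1.09 to 1.25 over the A arrays and 0.98 to 1.16 over the B arrays.

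Club cells and other secretory cells of the airway epithelium make the proteins of the airway lining fluid and, in rodents, hold much of the lung's cytochrome P450. These enzymes oxidise inhaled chemicals, and the products can be harmless or reactive, which is why club cells are known as targets of lung toxicants such as naphthalene. The secretoglobin Scgb1a1 is the classical secreted marker of club cells, and Agr2 and Bpifa1 belong to mucus-producing and other secretory cells of larger airways. The defining club cell gene Scgb1a1 was bright in every array (13321.1 to 15904.2), while all 5 basal cell markers measured were dim (at most 153.1).

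The bases just upstream of the annotated start are shown for the P450 genes Cyp4b1, Cyp2f4 and Cyp2a3, whose 600 µg/l and sham signals did not overlap, and for Scgb1a1, whose signals varied least. Sequences are RefSeq's on GRCr8, from 250 bases before the start up to the start, and capitals mark the motif matches described after them.
Cyp4b1 (chr5:134393117-134393366, minus strand): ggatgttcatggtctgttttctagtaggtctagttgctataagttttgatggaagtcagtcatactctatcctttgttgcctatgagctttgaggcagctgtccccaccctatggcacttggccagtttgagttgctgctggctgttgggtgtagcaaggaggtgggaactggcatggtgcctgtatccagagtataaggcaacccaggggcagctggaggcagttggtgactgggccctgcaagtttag
Cyp2f4 (chr1:91543518-91543767, plus strand): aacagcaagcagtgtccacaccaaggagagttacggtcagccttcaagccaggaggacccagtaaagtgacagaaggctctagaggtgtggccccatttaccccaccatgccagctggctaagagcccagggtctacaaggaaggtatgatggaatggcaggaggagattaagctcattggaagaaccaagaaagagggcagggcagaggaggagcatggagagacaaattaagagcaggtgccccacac
Cyp2a3 (chr1:91299334-91299583, plus strand): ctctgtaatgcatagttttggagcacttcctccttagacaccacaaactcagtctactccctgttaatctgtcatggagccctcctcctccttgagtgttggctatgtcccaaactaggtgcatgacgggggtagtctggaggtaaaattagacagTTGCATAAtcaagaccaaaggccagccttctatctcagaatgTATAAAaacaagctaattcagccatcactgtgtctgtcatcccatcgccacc
Scgb1a1 (chr1:215409687-215409936, minus strand): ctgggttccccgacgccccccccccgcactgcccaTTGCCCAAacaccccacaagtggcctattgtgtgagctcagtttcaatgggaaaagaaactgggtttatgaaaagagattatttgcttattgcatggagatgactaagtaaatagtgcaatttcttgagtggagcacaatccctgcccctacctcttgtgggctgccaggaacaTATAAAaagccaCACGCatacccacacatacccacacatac

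RefSeq held a promoter window for each of the 8 genes, from 250 bases before to 50 after the annotated start. In these windows 4 motifs were searched on both strands. Positions count from that start, and whether transcription begins there was not tested. From the start on, the bases of Cyp2a3 open with ATG, the letters of a start codon. GCGTG, the core of the xenobiotic response element bound by the aryl hydrocarbon receptor, occurred in 1 of the 8 windows, that of Scgb1a1 at -29 to -25 on the minus strand of the gene, and in 29.7% of 33469 windows of all genes. TTGCNNAA, which joins a pair of C/EBP half-sites, occurred at -94 to -87 in Cyp2a3 and at -215 to -208 in Scgb1a1, against 10.6% of all windows. TATAAA, the TATA box, lay at -52 to -47 in Cyp2a3, at -41 to -36 in Scgb1a1 and at -47 to -42 in Bpifa1 (14.2% of all windows). TGTTTAC, a FOXA motif, was in none of the 8 windows and in 3.78% of all. No motif matches overlapped. The windows of Cyp4b1, Cyp2f4, Cyp2s1, Scgb3a1 and Agr2 held none of these letters, which says nothing of the factors themselves.

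Cyp4b1 was the member that changed. It encodes a lung P450 that, in rodents and rabbits, turns the plant toxin 4-ipomeanol into a reactive product. Its signals at 2, 6 and 20 h were 3604.7, 3049.4 and 3623.1 at 600 µg/l, against 5659.8, 4854.5 and 5739.8 in sham lungs. In the 300 µg/l group they were 4133.8, 4060.7 and 4334.5. Every 600 µg/l array lay below every 300 µg/l array, and every 300 µg/l array below every sham array. How common such an order is among all probe sets was not counted. At each recovery time the 600 µg/l signal was a similar share of the sham signal, with ratios of 0.637, 0.628 and 0.631 at 2, 6 and 20 h, while the ratios of 300 µg/l to sham were 0.73, 0.836 and 0.755.

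Across the 3 times Cyp4b1 averaged 3425.7 ± 326.0 at 600 µg/l and 5418.0 ± 489.7 in sham lungs (SD, n = 3 arrays each). Tested as log2(signal + 50) in limma over all probe sets, it fell by 0.65 on the log2 scale at 600 µg/l (SE 0.07, 95% interval -0.8 to -0.51, fold 0.635, Benjamini-Hochberg adjusted p = 0.00203). Its unadjusted p ranked 17 among the 19638 probe sets. In bulk lung RNA, fewer cells of a type and less RNA per cell cannot be told apart. The result stayed past the threshold under each of 21 other settings, with log2 differences of -0.73 to -0.62, and was -0.65 without the 20 h conditions (limma adjusted p = 0.0351).

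At 300 µg/l Cyp4b1 averaged 4176.3 ± 141.8, against 5418.0 ± 489.7 in sham lungs (SD, n = 3 arrays each). The log2 difference of -0.37 (SE 0.07, 95% interval -0.52 to -0.22) did not pass after adjustment over all probe sets (limma adjusted p = 0.123, unadjusted p = 0.000239), nor under any of the 21 other settings (adjusted p 0.0639 to 0.67). Between the smoke levels, 600 minus 300 µg/l was -0.29 (SE 0.07, limma adjusted p = 0.801). The interval of that difference, -0.43 to -0.14, does not hold 0, but 5.05% of all probe sets also had an unadjusted p under 0.05 in this comparison.

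**Figure D1:**
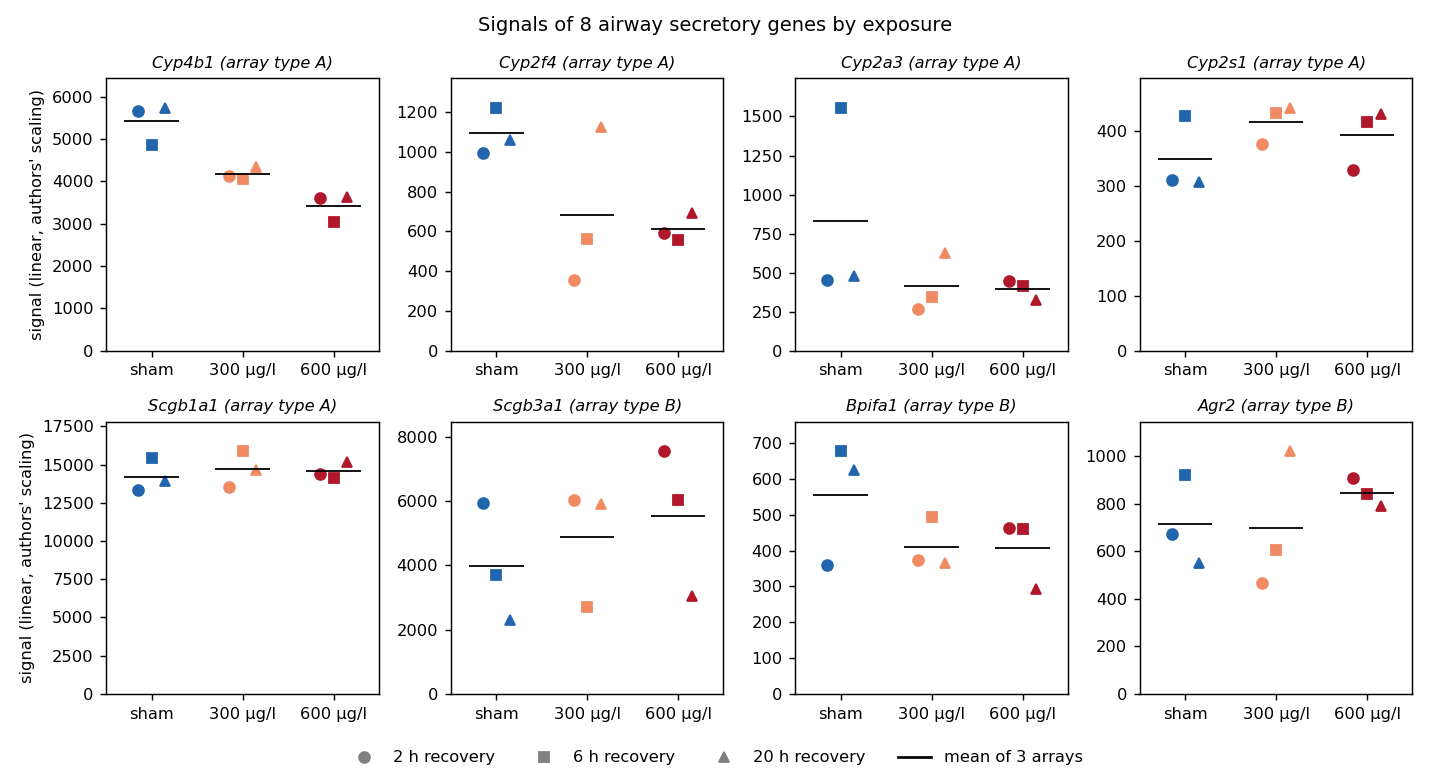
Signal of each of the 8 genes (y axis, linear, on the authors' scaling) by exposure (x axis), with 1 point per array, its shape giving the recovery time and a bar giving the mean of 3 arrays. Cyp4b1 is ordered by exposure without overlap, Cyp2f4 and Cyp2a3 hold 1 array that stands away from the rest of its group, and the Scgb1a1 groups lie over each other.

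Cyp2f4 encodes the rat counterpart of mouse Cyp2f2, the club cell enzyme known for oxidising naphthalene and styrene. Its signals at 2, 6 and 20 h were 590.4, 554.4 and 693.3 at 600 µg/l, against 995.5, 1222.3 and 1060.3 in sham lungs. The 300 µg/l arrays read 355.4, 564.0 and 1123.8. The 600 µg/l and sham arrays did not overlap, whereas the 300 µg/l group held the lowest array of all 9 at 2 h and a value within the sham range at 20 h.

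The mean signal of Cyp2f4 was 612.7 ± 72.1 at 600 µg/l and 1092.7 ± 116.8 in sham lungs (SD, n = 3 arrays each). The log2 difference was -0.79 (SE 0.23, 95% interval -1.3 to -0.27), larger than that of Cyp4b1 in size but with a wider error, and it did not pass the threshold (limma adjusted p = 0.25, unadjusted p = 0.00692). The spread is estimated from all exposures, and the 300 µg/l group (681.1 ± 397.4) is the most variable. Without the 300 µg/l arrays at 20 h the difference was again -0.79 and passed (limma adjusted p = 0.0431), as it did with only the 600 µg/l and sham arrays in the fit (limma adjusted p = 0.0464), and it passed under 2 of 21 other settings in all.

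For 300 µg/l against sham, Cyp2f4 differed by -0.78 (SE 0.23, 95% interval -1.3 to -0.26, limma adjusted p = 0.664). This mean joins log2 differences of -1.37 and -1.05 at 2 and 6 h with 0.08 at 20 h. Without the 20 h conditions, whose smoke labels conflict, it was -1.21 and passed (limma adjusted p = 0.0489), the only one of 21 other settings in which it did.

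Cyp2a3, a P450 of rat lung and nasal tissue related to the human enzyme CYP2A13, which activates tobacco-specific nitrosamines, did not pass the threshold. Its signals at 2, 6 and 20 h were 445.8, 414.1 and 326.2 at 600 µg/l, against 455.4, 1556.8 and 475.8 in sham lungs. The arrays of 300 µg/l gave 266.3, 346.4 and 626.7. All 600 µg/l values lay below all sham values, the highest of 600 µg/l (445.8) coming close to the lowest of sham (455.4). The sham array at 6 h was far above the other 8 arrays.

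On average Cyp2a3 had 395.4 ± 62.0 at 600 µg/l and 829.3 ± 630.1 in sham lungs (SD, n = 3 arrays each). The log2 difference was -0.77 (SE 0.37, 95% interval -1.58 to 0.05, limma adjusted p = 0.515), and -0.2 without the sham array at 6 h (adjusted p = 0.916). For 300 µg/l it was -0.78 (SE 0.37, 95% interval -1.59 to 0.04, limma adjusted p = 0.92), and -0.21 without that array.

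Cyp2s1 encodes a P450 of epithelia that responds to dioxin in human and mouse cells. It had signals of 328.6, 416.9 and 430.7 at 600 µg/l at 2, 6 and 20 h, against 311.3, 426.9 and 307.2 in sham lungs. In the 300 µg/l group they were 376.5, 432.0 and 442.4. The groups overlapped, and the sham array at 6 h was the 1 sham array within the range of both smoke groups. The log2 difference from sham was 0.16 at 600 µg/l (SE 0.11, 95% interval -0.09 to 0.4, limma adjusted p = 0.692) and 0.24 at 300 µg/l (SE 0.11, 95% interval -0.01 to 0.49, limma adjusted p = 0.913). Without the 20 h conditions these were 0.02 and 0.13, and without the sham array at 20 h alone 0.03 and 0.11.

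Scgb1a1 encodes the most abundant secreted protein of club cells, a small secretoglobin. Its signals at 2, 6 and 20 h were 14412.7, 14153.2 and 15188.9 at 600 µg/l, against 13321.1, 15410.9 and 13924.6 in sham lungs. The 300 µg/l arrays read 13548.5, 15904.2 and 14646.1. The 3 groups overlapped, and the highest of the 9 arrays was 1.19 times the lowest. The log2 difference from sham was 0.04 at 600 µg/l (SE 0.06, 95% interval -0.1 to 0.17, limma adjusted p = 0.885) and 0.05 at 300 µg/l (SE 0.06, 95% interval -0.09 to 0.18, limma adjusted p = 0.9974). These intervals are the narrowest of the 8 genes. Whether so bright a probe set could still show a rise was not tested, as the deposited values carry no saturation flags.

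Scgb3a1, a secretoglobin of larger airways, varied widely within every exposure. At 600 µg/l it had 7570.2, 6030.4 and 3045.2 at 2, 6 and 20 h, against 5940.7, 3708.8 and 2301.2 in sham lungs. Signals of 6048.1, 2693.4 and 5906.0 were measured at 300 µg/l. Each 600 µg/l array was above the sham array of its own time, but the groups overlapped across times. Compared with sham, 600 µg/l differed by 0.48 on the log2 scale (SE 0.31, 95% interval -0.21 to 1.17, limma adjusted p = 0.658) and 300 µg/l by 0.3 (SE 0.31, 95% interval -0.39 to 1.0, limma adjusted p = 0.9974). Without the doubtful type B sham array these were 0.58 and 0.41. Leaving out each condition in turn gave 0.18 (without 600 µg/l at 6 h) to 0.78 (without 600 µg/l at 20 h) for 600 µg/l. The difference at 300 µg/l was -0.23 without the 300 µg/l arrays at 20 h, so its sign rests on that condition.

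Of the 5 tested genes listed for large airways and glands, Bpifb1 and Muc5b had their lowest smoke arrays at the same times as Scgb3a1. Aqp5, Dmbt1 and Lyz2 did not. This was noticed after the values were seen. Bpifb1, a secreted protein of such airways, read 402.1, 516.2 and 97.7 at 600 µg/l at 2, 6 and 20 h, against 83.0, 122.1 and 62.7 in sham lungs, and 84.0, 45.9 and 335.5 at 300 µg/l. The gel-forming mucin gene Muc5b read 1228.9, 1191.1 and 934.7 at 600 µg/l, against 1148.5, 733.4 and 817.3 in sham lungs, and 1205.6, 722.7 and 1327.2 at 300 µg/l. In Scgb3a1, Bpifb1 and Muc5b the lowest 600 µg/l array was that at 20 h and the lowest 300 µg/l array that at 6 h. The sham arrays did not share an order. Their lowest was that at 20 h for Scgb3a1 and Bpifb1 and that at 6 h for Muc5b. Bpifb1 had all its sham signals under the type B filter of 238.7 and was tested only through its smoke arrays. Its lowest 600 µg/l signal (97.7) and its 300 µg/l signals at 2 and 6 h (84.0 and 45.9) were also under that filter. The order among such dim arrays, and the differences of Bpifb1 from sham, are poorly measured. The lowest 600 µg/l array was that at 2 h for the water channel gene Aqp5 (2027.8) and the lysozyme gene Lyz2 (17538.5), and that at 6 h for Dmbt1 (367.9), a secreted scavenger protein. Neither gene passed at 600 µg/l (limma adjusted p = 0.52 for Bpifb1 and 0.623 for Muc5b), nor did Aqp5, Dmbt1 or Lyz2, and 2 of the 5 had an unadjusted p under 0.05 (10.3% of all probe sets). In sham lungs Lyz2 read 16610.4 to 18434.0, about as bright as the alveolar type 2 gene Sftpc (15855.0 to 18173.2). Which lung cells gave the signals of these 5 genes was not tested. The part of the sampled airway in the spread of Scgb3a1 was not tested.

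Bpifa1 encodes a protein of the airway surface liquid with roles in defence and fluid balance. Its signals at 2, 6 and 20 h were 463.9, 461.9 and 293.8 at 600 µg/l, against 360.6, 678.9 and 625.5 in sham lungs. For 300 µg/l they were 373.1, 494.7 and 364.9. Both smoke arrays were above sham at 2 h and below it at 6 and 20 h, and the 2 h sham array is the doubtful one. The log2 difference from sham was -0.39 at 600 µg/l (SE 0.21, 95% interval -0.85 to 0.07, limma adjusted p = 0.572) and -0.36 at 300 µg/l (SE 0.21, 95% interval -0.82 to 0.1, limma adjusted p = 0.973). Without the doubtful array they were -0.67 (limma adjusted p = 0.226) and -0.64 (limma adjusted p = 0.52). Without the 20 h conditions they were -0.09 and -0.19, so the values moved with single conditions while none passed the threshold.

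Agr2 encodes a disulfide isomerase of the endoplasmic reticulum that mucin folding requires in mouse gut. It read 906.4, 839.3 and 791.4 at 600 µg/l at 2, 6 and 20 h, against 671.1, 919.4 and 548.2 in sham lungs. Values of 465.1, 604.9 and 1021.4 were found at 300 µg/l. The 600 µg/l arrays lay close together and inside the sham range, while the 300 µg/l group held both the lowest and the highest of the 9 arrays. Relative to sham, the log2 difference was 0.26 at 600 µg/l (SE 0.25, 95% interval -0.29 to 0.81, limma adjusted p = 0.782) and -0.07 at 300 µg/l (SE 0.25, 95% interval -0.62 to 0.48, limma adjusted p = 0.9974). Without the doubtful type B array they were 0.32 and -0.0036, and leaving out other single conditions turned the sign of each.

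Counted over the 8 genes, 1 fell and none rose at 600 µg/l, where 0.514% of all probe sets passed the threshold, 0.428% upward and 0.0866% downward. In limma, 2 of the 8 had an unadjusted p under 0.05, against 10.3% of all probe sets. The median log2 difference of the 8 was -0.17, with 4 above and 4 below 0, and that of all probe sets was -0.01. In 3 of the 8, Cyp4b1, Cyp2f4 and Cyp2a3, the 600 µg/l and sham arrays did not overlap, each with 600 µg/l lower, where 14.4% of all probe sets did not overlap and 7.42% did so with 600 µg/l lower. At 300 µg/l none of the 8 passed in limma, where 0.0458% of all probe sets did. There, 2 of the 8 had an unadjusted p under 0.05 (5.53% of all), and the median difference was -0.22. Only Cyp4b1 did not overlap with sham at 300 µg/l, against 8.44% of all probe sets, 4.32% with 300 µg/l lower. The comparisons of 600 and of 300 µg/l share the sham arrays. As the 8 genes were chosen with earlier results of these data known, these counts are descriptions and not a test against all probe sets.

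**Figure D2:**
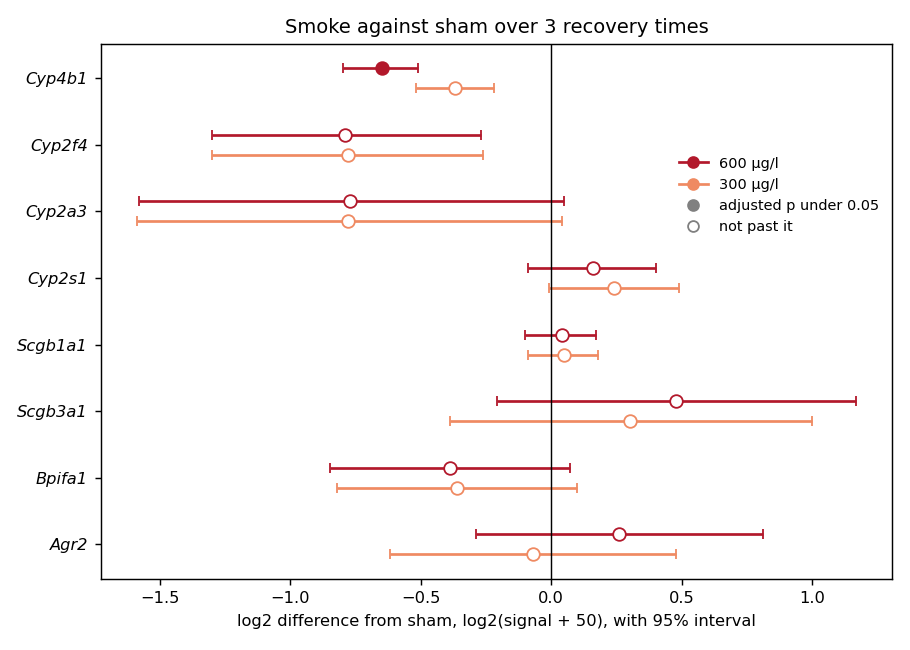
Log2 difference from sham of log2(signal + 50) over 3 recovery times (x axis) for each gene (y axis), at 600 and 300 µg/l, with the 95% interval of the limma fit. Only Cyp4b1 at 600 µg/l, -0.65, is filled as past an adjusted p of 0.05, and the intervals of Scgb1a1 are narrow around 0 while those of Cyp2a3 and Scgb3a1 are wide.

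Set directly against each other, 600 and 300 µg/l differed in none of the 8 genes in limma (adjusted p 0.801 to 0.9993), where 0.0204% of all probe sets passed. An unadjusted p under 0.05 was found in 1 of the 8, Cyp4b1. The interval for Scgb1a1, -0.14 to 0.13, was narrow, whereas that for Cyp2a3 ran from -0.81 to 0.82 and that for Scgb3a1 from -0.52 to 0.87, which leaves differences of either sign within the interval.

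The recovery times were compared over all exposures, to see whether these genes moved in the hours after the last session. None of the 8 passed in limma at 6 h against 2 h (adjusted p 0.393 to 0.787), where 0.0153% of all probe sets did, nor at 20 h against 2 h (adjusted p 0.318 to 0.969), where 0.0509% did. None passed in limma at 20 h against 6 h either (adjusted p = 0.9998 for all 8), where 0.0% of probe sets passed. At an unadjusted p under 0.05 the counts were 4, 2 and 1 of the 8, against 10.8%, 11.4% and 4.49% of all probe sets.

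The member with the smallest adjusted p across times was Scgb3a1, which averaged 3750.8 at 20 h, against 6519.7 at 2 h, over 3 arrays each. Its log2 difference was -0.89 (SE 0.31, limma adjusted p = 0.318), and at 6 h, where it averaged 4144.2, the difference from 2 h was -0.72 (SE 0.31, limma adjusted p = 0.449). Without the doubtful sham array at 2 h these were -0.79 (SE 0.37, limma adjusted p = 0.637) and -0.61 (SE 0.37, limma adjusted p = 0.734). For Cyp2s1 it was 0.29 at 6 h against 2 h (SE 0.11, limma adjusted p = 0.393), and for Cyp2f4 0.61 at 20 h against 2 h (SE 0.23, limma adjusted p = 0.368). For Cyp4b1 the 6 h array was the lowest in each exposure, with a difference of -0.16 from 2 h (SE 0.07, limma adjusted p = 0.427).

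Whether the smoke effect itself depended on recovery time was tested with both smoke levels together against sham. The spread in this fit is estimated from how far the smoke levels differed at each time. The single sham arrays add nothing to that estimate, though they enter each difference and its SE. None of the 8 differed at 6 h from 2 h (limma adjusted p 0.683 to 0.9954), where 0.0% of probe sets passed, or at 20 h from 2 h (adjusted p = 0.9996), where 0.0102% did. In each of these, 1 of the 8 had an unadjusted p under 0.05, against 6.27% and 3.45% of all probe sets.

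In the first it was Cyp2a3, with a difference of smoke effects of -1.55 on the log2 scale (SE 0.48, limma adjusted p = 0.683), which cannot be estimated without the bright sham array at 6 h. The log2 differences of Cyp2a3 from sham were -1.79 for 600 µg/l and -2.02 for 300 µg/l at 6 h, and -0.48 and 0.36 at 20 h. In the second it was Bpifa1 (log2 -1.02, SE 0.31, limma adjusted p = 0.9996), for which the doubtful sham array at 2 h is likewise needed. For Cyp4b1 the corresponding differences were 0.09 (SE 0.25, 95% interval -0.48 to 0.66) and 0.02 (SE 0.25, 95% interval -0.55 to 0.59).

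**Figure D3:**
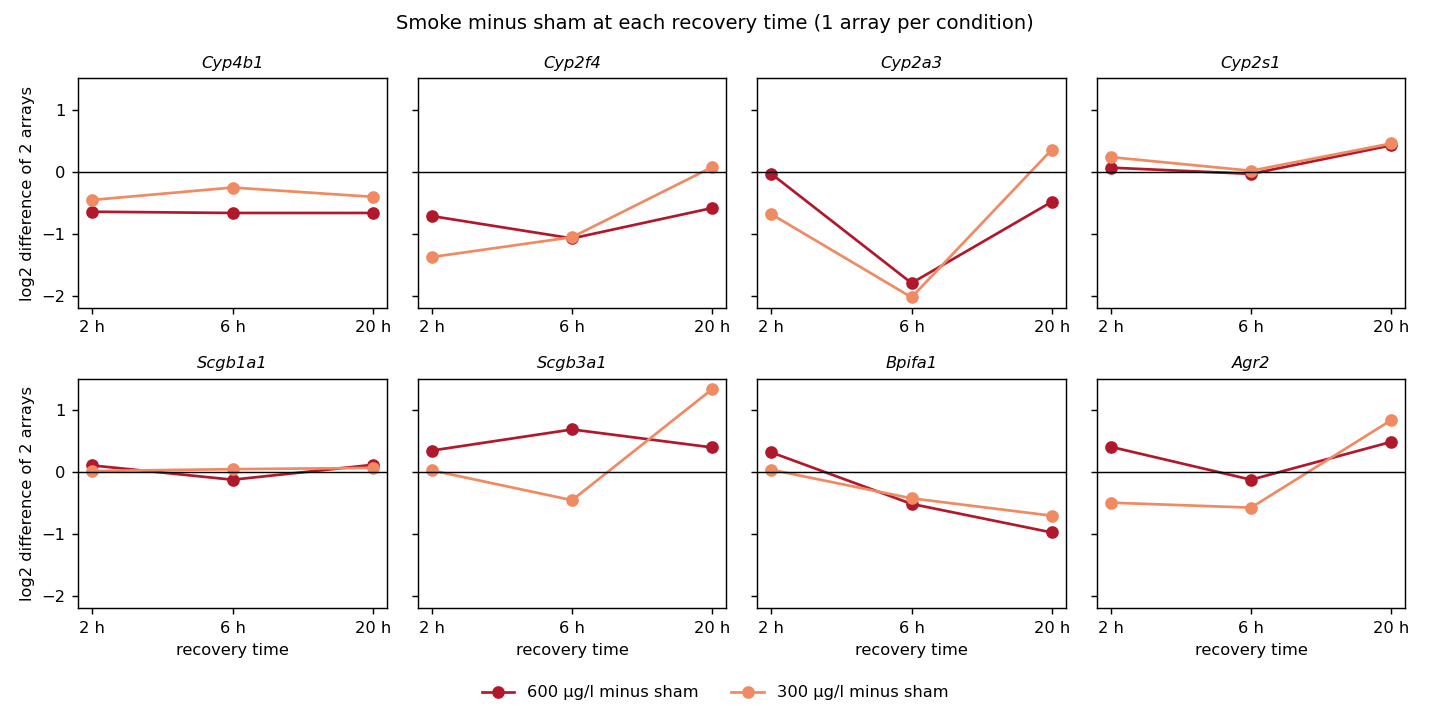
Log2 difference of log2(signal + 50) between a smoke array and the sham array of the same recovery time (y axis) at 2, 6 and 20 h (x axis), for 600 and 300 µg/l, each point from 2 arrays and without an error. Cyp4b1 stays between -0.66 and -0.25 at all times, while Cyp2a3 dips to -2.02 at 6 h and Bpifa1 runs from above 0 at 2 h to below 0 at 20 h.

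Of the 4 P450 genes, 3 lie in the Cyp2 gene cluster of rat chromosome 1, in the RefSeq order of GRCr8. Between Cyp2s1 and Cyp2t1, both included, stand 18 protein-coding genes, 15 of them named Cyp2. A probe set of 1 symbol was found for 10 of these 15, of which Cyp2s1, Cyp2a3 and Cyp2f4 passed the filter on dim probe sets. The other 7, Cyp2b3, Cyp2b21, Cyp2b12, Cyp2g1, Cyp2a1, Cyp2a2 and Cyp2t1, had signals of 2.8 to 171.1 and were not tested. Genes beside the cluster did not pass at 600 µg/l, with log2 differences of 0.32 for the receptor kinase gene Axl (SE 0.1, limma adjusted p = 0.262), -0.17 for the oxygen-sensing hydroxylase gene Egln2 (SE 0.08, limma adjusted p = 0.515) and -0.19 for the GTPase gene Rab4b (SE 0.13, limma adjusted p = 0.669). Cyp2 sequences are alike, and whether a probe set also binds transcripts of a neighbouring paralog was not tested.

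Across the 9 type A arrays, the log2 signals of Cyp2f4 and Cyp2a3 correlated with r = 0.75, those of Cyp2s1 and Scgb1a1 with 0.71, and those of Cyp4b1 and Cyp2f4 with 0.64. Cyp4b1 and Cyp2s1 gave r = -0.53. On type B, r was 0.33 for Scgb3a1 and Agr2, -0.36 for Scgb3a1 and Bpifa1, and -0.01 for Bpifa1 and Agr2. The arrays share exposures and times, so these are descriptions of 9 points. Of all tested genes on the same array type, the 3 with the highest Pearson r over the 9 arrays were Col4a4 (0.96), Pip4k2b (0.96) and Cadm1 (0.94) for Cyp4b1, and Tm2d1 (0.95), Cracr2b (0.95) and Foxo1 (0.94) for Cyp2f4. For Cyp2a3 they were Zup1 (0.96), Numa1 (0.94) and Mapk9 (0.93), and for Scgb1a1 Commd9 (0.95), Agpat5 (0.94) and Zfp574 (0.94). Cyp2s1 was nearest to Mrps15 (0.94), Pold2 (0.93) and Vps35l (0.92). On type B, Scgb3a1 was nearest to Naa15 (0.98), Banp (0.97) and Lpgat1 (0.96), Bpifa1 to Zfp212 (0.96), Mid1 (0.93) and Magix (0.92), and Agr2 to Mterf2 (0.93), Mrpl47 (0.93) and Cr1l (0.91). Every member had such near matches, as 9 points were searched against all tested genes of a type.

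Other xenobiotic-metabolising genes of the lung were set beside the P450 members. Of 25 tested genes of that list at 600 µg/l, 1 rose, none fell and 24 did not pass, with a median log2 difference of 0.29 and 19 differences above 0. The glutathione transferase gene Gstp1 rose, with 5873.7 ± 699.0 at 600 µg/l and 3988.9 ± 141.5 in sham lungs (SD, n = 3 arrays each), a log2 difference of 0.55 (SE 0.1, limma adjusted p = 0.0482) that passed under 10 of 21 other settings. Cyp1a1, the P450 most strongly induced through the aryl hydrocarbon receptor, had 9462.7, 2122.4 and 207.0 at 600 µg/l at 2, 6 and 20 h, against 154.4, 110.8 and 101.7 in sham lungs. Its values at 300 µg/l were 8795.0, 2789.3 and 209.3. Its log2 difference over the 3 times was 3.35 at 600 µg/l, with an SE of 0.72 that holds its differences between times (limma adjusted p = 0.0967). Sham signals of Cyp1a1, and of Gsta3 (108.5 to 122.3), lay under the filter of 183.8. Both genes were tested only through their smoke arrays, and their differences are poorly measured. Gsta3 (0.9, adjusted p = 0.0747), Gstm1 (0.63, adjusted p = 0.134) and Gsta1 (0.67, adjusted p = 0.14), further glutathione transferase genes, did not pass in limma. None of the 25 passed in limma at 300 µg/l, where the median was 0.17. An unadjusted p under 0.05 was found in 13 of the 25 at 600 µg/l (10.3% of all probe sets) and in 10 at 300 µg/l (5.53% of all).

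Of the other airway secretory genes, 19 were tested and 10 were under the filter, among them the mucin gene Muc5ac. At 600 µg/l 2 of the 19 rose and none fell, with a median log2 difference of 0.12. Pigr, the receptor that carries polymeric immunoglobulins across epithelium, had 8204.6 ± 535.9 at 600 µg/l and 6331.4 ± 381.0 in sham lungs (SD, n = 3 arrays each), a log2 difference of 0.37 (SE 0.06, limma adjusted p = 0.0307). Slc26a4, the anion exchanger pendrin, had 342.9 ± 156.6 at 600 µg/l and 82.8 ± 11.0 in sham lungs (SD, n = 3 arrays each), a difference of 1.49 (SE 0.27, limma adjusted p = 0.0474). The sham signals of Slc26a4 lay under the filter of 183.8 and it was tested only through its smoke arrays, which limits how well that rise is measured. Pigr passed under 10 of 21 other settings and Slc26a4 under 9 of 20. The mucin gene Muc1 (0.43, adjusted p = 0.0942), the haptoglobin gene Hp (0.51, adjusted p = 0.136) and the claudin gene Cldn10 (0.39, adjusted p = 0.248) did not pass in limma. None of the 19 passed in limma at 300 µg/l, where 2 had an unadjusted p under 0.05 (5.53% of all probe sets). At 600 µg/l 7 did (10.3% of all).

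**Figure D4:**
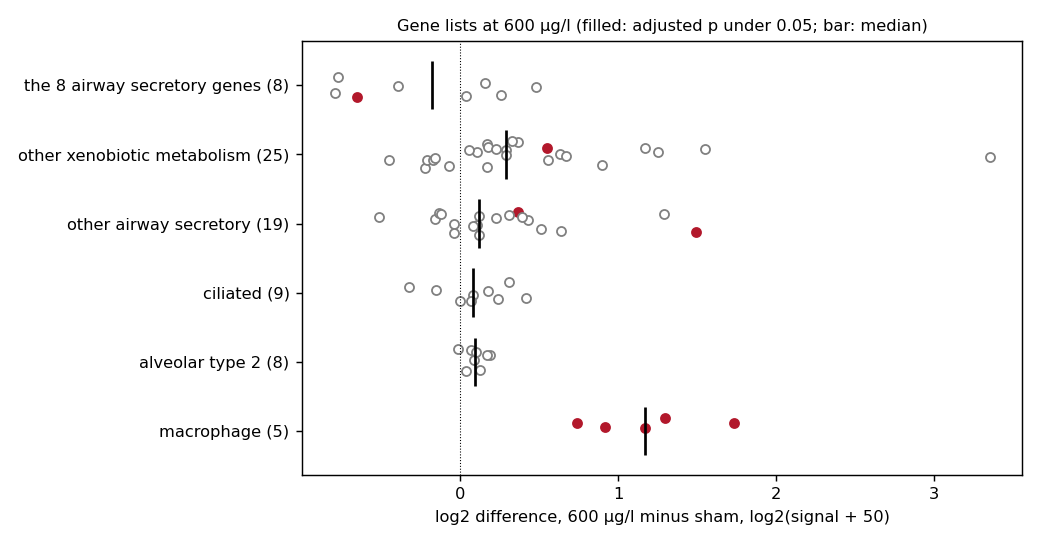
Log2 difference of 600 µg/l minus sham in log2(signal + 50) (x axis) for each tested gene of 6 lists (y axis, number tested in brackets), with filled points past an adjusted p of 0.05 and a bar at each list's median. The 8 airway secretory genes have a median of -0.17 with 1 filled point, and all 5 macrophage genes are filled and above 0.

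Markers of other lung cells were measured on the same arrays. Summed signals of 5 tested macrophage markers were 26744.6 to 31114.3 at 600 µg/l, against 13098.9 to 15563.5 in sham lungs, and 22660.5 to 25458.7 at 300 µg/l. All 5 rose at 600 µg/l and 3 at 300 µg/l, these 3 under 15 or 16 of 21 other settings. Of all probe sets, 0.514% passed at 600 µg/l and 0.0458% at 300 µg/l. The macrophage list was chosen with earlier results of these data known, so these counts are descriptions. Of the 5, Ctsk had sham signals of 46.7 to 110.1, under the filter of 183.8, and was tested only through its smoke arrays. The part of this rise in the fall of Cyp4b1 was not tested. Of 9 ciliated, 8 alveolar type 2 and 5 alveolar type 1 markers tested, none passed at 600 µg/l in limma, with medians of 0.08, 0.1 and -0.1. An unadjusted p under 0.05 was found in 2 of the 9, none of the 8 and 2 of the 5, against 10.3% of all probe sets. The signal summed over all 10 measured ciliated markers, which include the dim and untested Rsph1, was 10345.8 to 12230.7 at 600 µg/l and 10618.3 to 11575.5 in sham lungs, and 10509.1 to 12030.9 at 300 µg/l. Of the 9 tested ciliated genes 6 had differences above 0 and 2 below, from 0.42 (SE 0.14, limma adjusted p = 0.31) for Cfap126 to -0.32 (SE 0.07, limma adjusted p = 0.0901) for Tppp3, with Foxj1, the regulator of ciliated cell fate, at 0.31 (SE 0.16, limma adjusted p = 0.552). Alveolar type 2 sums were 82645.7 to 93633.2 at 600 µg/l, against 78659.5 to 88378.3 in sham lungs, and 82886.3 to 87174.1 at 300 µg/l. Alveolar type 1 sums were 35979.7 to 37883.8 at 600 µg/l, below the 38273.2 to 39993.5 of sham lungs, and 34606.6 to 38964.7 at 300 µg/l. The largest part of these sums is Cav1, whose highest sham signal (17780.5) is that of the doubtful array. The ends of the sham range of sums, however, are those of the arrays at 6 and 20 h. Log2 differences of the 5 genes at 600 µg/l ran from -0.51 for Akap5 to 0.01 for Hopx, with Ager at -0.04. The ciliated and alveolar sums all join both array types and include the doubtful array. Of the club and secretory markers on the type A arrays beside Cyp4b1, Scgb1a1 had all its 600 µg/l signals within the sham range. Those of Cyp2f4 (554.4 to 693.3) all lay below its sham range (995.5 to 1222.3). The sum of 5 club and secretory markers (Scgb1a1, Scgb3a1, Cyp2f4, Cyp4b1 and Agr2) was 23341.9 to 27084.4 at 600 µg/l, against 23574.1 to 26588.2 in sham lungs, and 23827.2 to 27031.8 at 300 µg/l. This sum is mostly Scgb1a1 (13321.1 to 15410.9 in sham lungs) and holds Cyp4b1 itself. It also joins both array types, with the doubtful sham array among them. A fall of Cyp4b1 or Cyp2f4 need not show in it. The neuroendocrine and nerve marker Syp (-0.21) and the oesophageal keratin Krt4 (-0.16) did not pass, and thyroglobulin, a marker of thyroid, was under the filter in all arrays (104.6 to 171.1).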

How the data were processed

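Lung RNA was labelled as biotinylated cRNA for Affymetrix arrays of 2 types, according to the labels. The deposited intensity values are linear signals made by the authors with MAS5, per the submitters' processing notes; no version, detection call or saturation flag is given in the sources used here. The trimmed mean (2% off each end) came to 500.09 to 500.1 for all 18 arrays, and this scaling was kept. The number of arrays limits the precision.

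Samples were grouped by title. Gene symbols came from the platform annotation, updated through Entrez identifiers. Control probe sets (57 per type) were left out, and of the 100 probe sets that both types carry, the type A values were used. A probe set was tested if 3 or more of its 9 arrays reached the type's 40th percentile, a signal of 183.8 (A) or 238.7 (B), which left 9901 A and 9737 B probe sets. Changes are on the log2(signal + 50) scale, which understates those of dim genes. Fits used limma 3.58.1 in R 4.3.3 (eBayes with an intensity trend) for each type, with two-sided tests, Benjamini-Hochberg adjustment over both types and a threshold of 0.05. Exposure and recovery time entered without interaction (4 residual degrees of freedom). Smoke effects were compared between times in a fit with their interaction (3 residual degrees of freedom).

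The 8 genes, the gene lists and the marker lists were chosen with earlier results of these data known. From each list, up to 5 genes with the smallest p at 600 µg/l and those past the threshold were eligible to be named, each by its brightest probe set. Muc5ac and the dim or neighbouring Cyp2 genes are named besides. Other settings tried were other pseudocounts, scalings, filters and fits, and leaving out arrays.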

Additional observations from a re-analysis of the deposited data

Results flagged for a closer look

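For Agr2 the smoke effect changed sign between recovery times. At 20 h both smoke arrays were above sham, with log2 differences of 0.49 at 600 µg/l and 0.84 at 300 µg/l, and at 6 h both were below it, with -0.12 and -0.57. The mean effect at 20 h minus that at 6 h was 1.01 on the log2 scale. This difference was not tested, it rests on 1 array per condition, and 1 label field of the 20 h smoke arrays reads sham.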

How the results depend on the processing

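With up to 21 other settings per comparison of exposures or times, and 16 and 15 for the differences of smoke effects, the number of the 8 genes past the threshold stayed as reported in the comparisons of 600 with 300 µg/l, of times, and of smoke effects between times. At 600 µg/l against sham it was 2 with only the groups compared in the fit, Cyp2f4 being added, and 1 to 2 on leaving out each condition in turn. At 300 µg/l against sham it was 1, Cyp2f4, without the 20 h conditions. Directions of differences that had not passed turned in a few cases. Scgb1a1 at 600 µg/l was -0.0046 without the 20 h conditions and -0.0045 to 0.12 on leaving out each condition, and Agr2 at 600 µg/l was -0.03 to 0.48. At 300 µg/l Scgb3a1 was -0.21 without the 20 h conditions and -0.23 to 0.74 on leaving out each condition, and Agr2 was -0.47 to 0.17. The cause was not tested. Exposures are matched by recovery time, which is a term of the fit, and without it Cyp4b1 was again the 1 gene past the threshold at 600 µg/l. Leaving out the sham array of a compared time gave no fit of the smoke effects. Signals of Cyp2a3, Cyp2s1 and Bpifa1 lie nearer the filters of 183.8 (A) and 238.7 (B) than those of Cyp4b1.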
